A study of Homo sapiens with 6 samples.

Results

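The genes described here encode the proteins that prepare, start and carry out DNA replication: the origin recognition complex and licensing factors, the MCM helicase and its activators, the replicative polymerases, the clamp and its loader, and the proteins that process, protect and repackage DNA at the fork. They were 59 genes given by symbol, and each was found by its Ensembl identifier among the 60668 genes of the table. All 59 were among the 21101 genes tested. RNA-seq was done on MiaPaCa-2, an established human pancreatic ductal adenocarcinoma (PDAC) cell line, in 3 libraries of cells kept for 48 h at 2.5 mM glucose (low glucose) and in 3 control libraries at 25 mM. The labels name no genetic change or drug in either group, the design text calls the replicates independent, and all 6 libraries come from this single line. The protocol text states 2.5 mM for every sample, but the titles and the treatment characteristic set the 3 controls apart. The table's column names tie low glucose replicates 1 and 2 to their labels. The other 4 columns carry no replicate number, and their groups rest on the column names forming a run of 3 for each condition.

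Before S phase, the origin recognition complex binds origins, and CDC6 and CDT1 load the MCM2-7 ring onto DNA there. When S phase starts, the kinase CDC7-DBF4 and further factors bring CDC45 and GINS to MCM2-7, which makes the active helicase. Polymerase alpha with primase lays down primers, RFC loads the PCNA clamp, polymerases epsilon and delta extend the leading and lagging strands, and FEN1, DNA2 and LIG1 join the Okazaki fragments. Many of these genes are transcribed under the control of E2F factors as cells pass from G1 into S phase, and their RNA is commonly read as a mark of proliferation.

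RNA for most of the replication genes was lower in low glucose. Of the 59 genes, 49 were lower, 0 were higher and 10 did not pass the test (limma, adjusted p under 0.05), where 16.2% of all tested genes were lower and 14.7% were higher. The count of higher members was also 0 at an unadjusted limma p under 0.05, with edgeR and with DESeq2. Because all members were well expressed, with at least 52 reads in every library, the share of lower genes among the tested genes with a mean value of at least 50 is given too, and it was 27%. The median log2 fold change of the members was -0.67, and it was 0.05 over all tested genes and -0.05 over those with a mean of at least 50. FAM111B fell by 1.78 on the log2 scale, more than any other member, and POLE4 was the only member with an estimate above 0 (0.10). A fall of at least 1 on the log2 scale that passed the test was found in 16 members, against 1.41% of all tested genes. In 54 members every low-glucose value lay below every control value, against 21.8% of all tested genes. Reads on the 59 genes made up 0.552%, 0.550% and 0.552% of all reads in the 3 control libraries. They made up 0.327%, 0.341% and 0.352% in the low-glucose libraries. In bulk RNA, fewer cells in S phase and less of these RNAs per cell cannot be told apart.

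**Figure D1:**
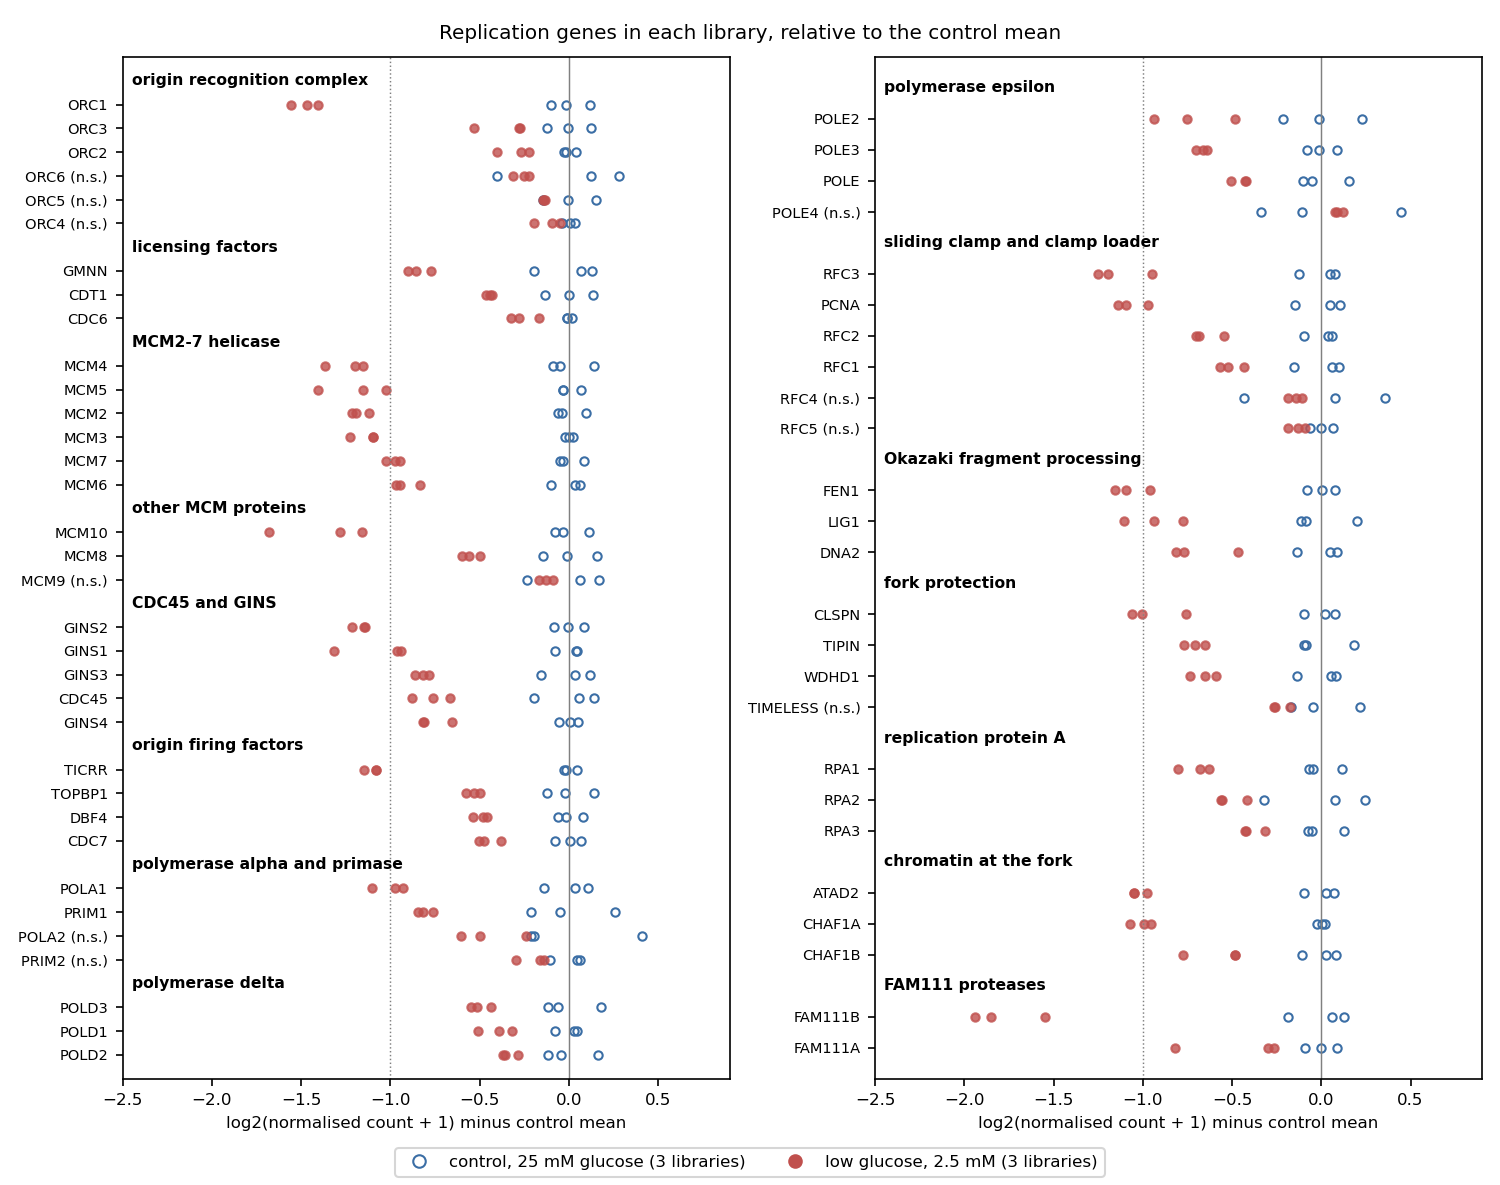
Each line is a gene, grouped by role, and each point a library: open circles are the 3 control libraries and filled circles the 3 low-glucose libraries. The x axis is log2(normalised count + 1) minus the control mean, the dotted line marks -1, and "n.s." marks the 10 genes that did not pass the test. In 54 genes all filled circles lie to the left of all open circles.

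**Figure D2:**
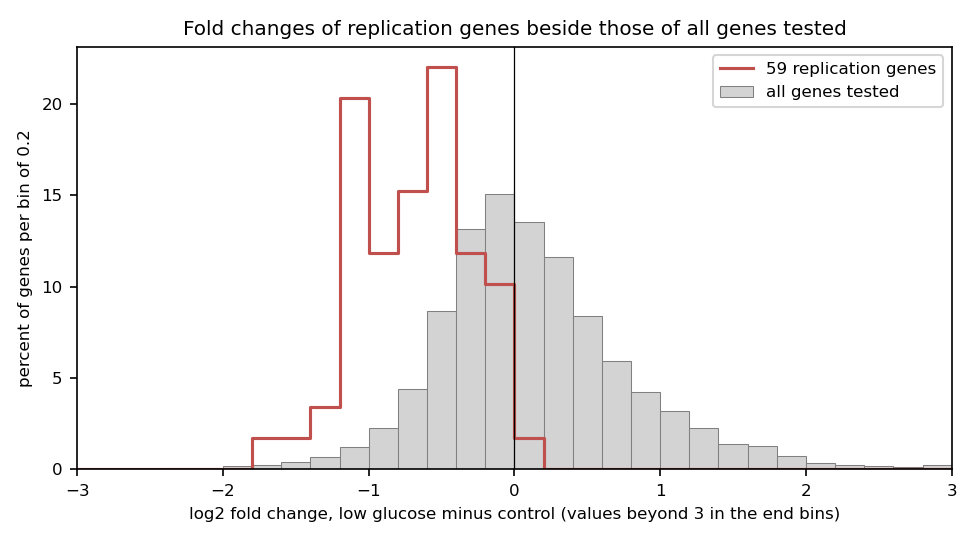
The x axis is the log2 fold change of low glucose against control and the y axis the percent of genes in each bin of 0.2. Grey bars are the 21101 genes tested and the red line the 59 replication genes, whose median was -0.67 where that of all genes was 0.05.

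Depth was 9741183 to 10190154 reads a library in control, and 10595408 to 13733477 reads a library in low glucose. Control libraries differed from each other by more than low-glucose libraries did, with a mean chi-square per gene of 4.67 to 19.5 against 1.87 to 2.89, and the middle and deepest control libraries were farthest apart. Without the middle control library 51 members were lower, and without the deepest 50. The deposited values are normalised read counts, meaning read counts divided by the size factor of the library. They are given below in the order shallowest, middle and deepest control library, and then low glucose replicate 1, replicate 2 and the unnumbered library. Means are given ± SD with n = 3, and SE is the standard error of a log2 fold change, and p values are limma p values adjusted over all tested genes. Of the epithelial markers, the keratin genes KRT8, KRT18 and KRT19 were highly expressed and, like the members, lower in low glucose (log2 fold changes of -1.01, -0.74 and -0.83, limma adjusted p = 3.26e-06, 4.29e-05 and 7.46e-06). KRT7 had 2 to 12 reads in a library, and EPCAM and CDH1 had at most 3. The mesenchymal marker VIM was highly expressed and rose by 0.42 on the log2 scale (adjusted p = 0.00819), and ZEB1 had an estimate of -0.17 (adjusted p = 0.194). The part of these marker changes in the results on the members was not tested. The acinar markers PRSS1, CPA1 and CELA3A were at 0, and the summed fibroblast, leukocyte and endothelial markers did not exceed 17 in any library.

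Within the origin recognition complex, which marks origins for licensing, 3 of the 6 subunit genes fell. The fall in ORC1 (ENSG00000085840.13, chr1:52372829-52404423, minus strand), the ATPase subunit whose level is regulated through the cell cycle, was much larger than in the other subunits. The normalised counts of ORC1 were 416, 485 and 441 in control and 151, 168 and 161 in low glucose. The groups were far apart and the values within each lay close together. ORC1 was thus 447 ± 34.9 in control and 160 ± 8.48 in low glucose, a log2 fold change of -1.48 (SE 0.10, adjusted p = 2.38e-07). ORC2 and ORC3, core subunits, fell by 0.30 and 0.36 on the log2 scale with adjusted p of 0.0178 and 0.0139. Neither of those calls held under scaling by library size (adjusted p = 0.0759 and 0.0540) or without a variance trend (adjusted p = 0.0749 and 0.0945). Both were also lost without the shallowest control library and without low glucose replicate 1.

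ORC4, another core subunit, was the member of the complex with the smallest difference. Its normalised counts were 469, 484 and 494 in control and 452, 421 and 465 in low glucose. Every low-glucose value was the lower, yet the gap between the groups was small, and the log2 fold change of -0.11 did not pass the test (95% confidence interval -0.30 to 0.07, adjusted p = 0.357). ORC5 had an estimate of -0.14 (adjusted p = 0.296) with overlapping groups. ORC6, the smallest subunit, had control values of 731, 507 and 814 and low-glucose values of 541, 564 and 574. Its middle control library lay below all low-glucose values while the other controls lay above them. The estimate was -0.26 (adjusted p = 0.161), and without the middle control library it was -0.46 (adjusted p = 5.26e-05).

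The 3 licensing genes all fell, by unequal amounts. The largest fall was in GMNN, which encodes geminin, the inhibitor of CDT1. GMNN counted 454, 378 and 474 in control and 232, 253 and 239 in low glucose. All low-glucose values lay well below the lowest control. The log2 fold change was -0.84 (SE 0.11, adjusted p = 3.88e-05). CDT1, which brings MCM2-7 to the origin, fell by 0.45 on the log2 scale (adjusted p = 0.00122).

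CDC6, the ATPase that loads MCM2-7 with CDT1, had the smallest fall of the licensing genes. The CDC6 values were 1287, 1286 and 1312 in control and 1153, 1034 and 1066 in low glucose. The controls were nearly equal and the groups did not overlap. A log2 fold change of -0.26 (SE 0.08) passed the test with an adjusted p of 0.0185, but this call was lost under 6 of the 15 alternative fits, among them quantile normalization (-0.09, adjusted p = 0.445).

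All 6 genes of the MCM2-7 helicase, the motor that unwinds DNA at the fork, fell, and by similar amounts. Their log2 fold changes lay between -1.24 and -0.92 with a median of -1.16, and 4 of them passed -1. Reads on the 6 genes made up 0.187%, 0.196% and 0.185% of all reads in control and 0.0890%, 0.0957% and 0.0972% in low glucose. The largest fall was in MCM4, with normalised counts of 4096, 4663 and 3976 in control and 1644, 1848 and 1906 in low glucose. Its mean went from 4245 ± 367 to 1799 ± 138, a log2 fold change of -1.24 (SE 0.09, adjusted p = 1.94e-07). The smallest was in MCM6 (ENSG00000076003.5, chr2:135839626-135876443, minus strand), which counted 2350, 2308 and 2102 in control and 1149, 1169 and 1265 in low glucose. The groups did not overlap. Its log2 fold change was -0.92 (SE 0.08, adjusted p = 1.18e-06). MCM5 (-1.19), MCM2 (-1.18), MCM3 (-1.14) and MCM7 (-0.98) lay between them. MCM2 shares 1113 bp of exon with ENSG00000285600, a gene on the other strand that fell by 1.01 on the log2 scale, and the strand setting of the counting is not given in the sources used here. MCM7 shares 392 bp with AP4M1 on the other strand, which rose by 0.29. In all, 20 members share at least 100 bp of exon with a gene on the other strand and carry this uncertainty.

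**Figure D3:**
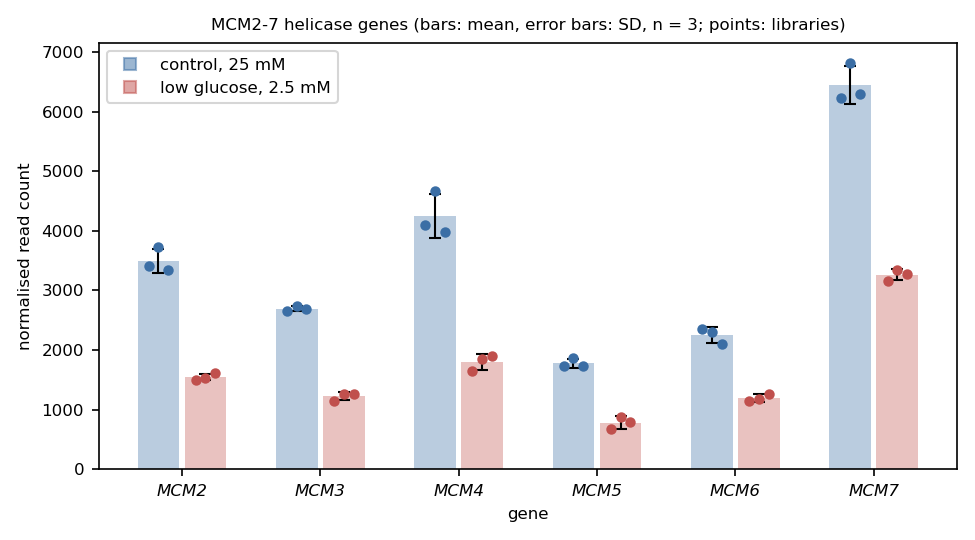
The y axis is the normalised read count and the x axis the 6 MCM2-7 genes. Bars are means, error bars SD (n = 3) and points libraries, with control in blue and low glucose in red. MCM4 falls from 4245 to 1799 and MCM6 from 2253 to 1194, and no low-glucose point reaches a control point of the same gene.

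The promoters of 4 of these 6 genes were in the RefSeq promoter table (GRCh38.p14, 250 bases before to 50 after each annotated start), and all 4 held a match to TTTGGCGC or TTTCGCGC, forms of the E2F site, on either strand. They are shown here because the 6 genes moved together. The windows run from 160 bases before the start to 20 after it, 5′ to 3′ on the gene's strand, and capitals mark the matches, and matches on the 2 strands can overlap and then run together. MCM7 has several annotated starts, and its window with the match is shown. The windows lie at chr3:127598251-127598430 (plus strand) for MCM2, chr6:52284723-52284902 (minus) for MCM3, chr2:135876424-135876603 (minus) for MCM6 and chr7:100101378-100101557 (minus) for MCM7.
MCM2: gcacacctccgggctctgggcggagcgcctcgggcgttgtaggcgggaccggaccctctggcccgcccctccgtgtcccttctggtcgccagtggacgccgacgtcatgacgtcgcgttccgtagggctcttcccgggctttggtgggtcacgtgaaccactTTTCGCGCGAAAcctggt
MCM3: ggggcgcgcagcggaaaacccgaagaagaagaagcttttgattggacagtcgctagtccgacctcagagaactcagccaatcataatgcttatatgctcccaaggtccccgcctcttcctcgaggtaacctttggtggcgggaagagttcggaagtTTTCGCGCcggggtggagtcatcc
MCM6: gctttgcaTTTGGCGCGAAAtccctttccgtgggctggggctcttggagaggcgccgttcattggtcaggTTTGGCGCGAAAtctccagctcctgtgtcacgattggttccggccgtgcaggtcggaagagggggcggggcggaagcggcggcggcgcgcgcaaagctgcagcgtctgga
MCM7: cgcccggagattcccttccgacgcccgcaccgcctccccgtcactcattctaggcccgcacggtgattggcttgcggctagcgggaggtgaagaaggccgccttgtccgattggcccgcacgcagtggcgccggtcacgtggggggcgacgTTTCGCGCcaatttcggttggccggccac
In MCM2, MCM3 and MCM7 the match lies beside the start, and in MCM6 there are separate matches further upstream. Over all members, 50 of 59 had a promoter in the table and 14 of these (28%) held a match at 1 annotated start or more, among them CDC6, TOPBP1, POLA1 and POLE. The share was 1.40% over the 27305 genes of the table and 2.28% over the 12457 of them that were tested. The median log2 fold change was -0.78 for the 14 members with a match and -0.54 for the other matched members. A match is a run of letters and not a site shown to be bound, and ORC1, with the second largest fall of all members, held none. Only these forms were searched, and only in these windows, so a promoter without a match may still hold an E2F site.

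Matches in other steps of replication are shown for GMNN, an inhibitor of licensing, GINS1, a helicase subunit, and POLE2, a polymerase subunit. GMNN has more than 1 annotated start, and its window with the match is shown. These windows run from 100 bases before the start to 20 after it, at chr6:24775313-24775432 (plus strand), chr20:25407573-25407692 (plus) and chr14:49688195-49688314 (minus), with the matches in capitals.
GMNN: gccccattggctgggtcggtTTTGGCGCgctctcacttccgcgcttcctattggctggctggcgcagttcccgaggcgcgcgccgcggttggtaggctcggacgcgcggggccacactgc
GINS1: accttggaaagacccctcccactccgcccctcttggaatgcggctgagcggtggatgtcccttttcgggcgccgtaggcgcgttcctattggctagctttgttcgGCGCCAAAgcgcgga
POLE2: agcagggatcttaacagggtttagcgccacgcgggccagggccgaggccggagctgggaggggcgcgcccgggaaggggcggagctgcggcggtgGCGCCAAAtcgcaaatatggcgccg
CCAAT, searched on both strands, was in 30 of the 50 promoters (60%), in those of 39.7% of all genes in the table and in those of 41.7% of the tested genes. TTTGAA, part of the CHR element of late cell cycle genes, was in 3 of the 50 (6%), in 18.2% of all genes and in 13.6% of the tested genes. The median log2 fold change was -0.74 for members with CCAAT and -0.56 for the other matched members. For TTTGAA it was -0.49 with a match and -0.66 without. Some members, such as GMNN and POLA1, held both CCAAT and an E2F form, so these medians are not over separate genes. Over the tested genes in the promoter table, the median was -0.13 with an E2F form and 0.01 without. For CCAAT it was -0.02 with a match and 0.03 without, and for TTTGAA -0.05 and 0.02. The part of any of these matches in the falls was not tested.

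Among the other MCM proteins the difference ranged from one of the largest falls to none that passed. MCM10, which takes part in activating the helicase and is not part of the ring, counted 805, 726 and 704 in control and 232, 333 and 305 in low glucose. The low-glucose libraries varied among themselves, with replicate 1 lowest, but lay far below the controls. MCM10 went from 745 ± 53.1 to 290 ± 52.1, a log2 fold change of -1.37 (SE 0.12, adjusted p = 1.66e-06). MCM8 and MCM9 form a separate complex that acts in recombinational repair. MCM8 fell by 0.55 on the log2 scale (adjusted p = 0.00446). MCM9 had values of 195, 259 and 240 in control and 204, 215 and 210 in low glucose. The groups overlapped, and the estimate of -0.13 (95% confidence interval -0.39 to 0.13, adjusted p = 0.458) did not pass the test.

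CDC45 and the 4 GINS genes, which complete the active helicase with MCM2-7, all fell, with a median log2 fold change of -0.82. GINS2 counted 494, 468 and 526 in control and 224, 213 and 223 in low glucose. The low-glucose libraries were nearly equal and less than the lowest control by a wide margin. Its log2 fold change was -1.17 (SE 0.09, adjusted p = 7.48e-07). GINS4 had the smallest fall of the class. It counted 955, 928 and 887 in control and 524, 525 and 585 in low glucose. The groups were again well apart, with a log2 fold change of -0.76 (SE 0.08, adjusted p = 1.05e-05). GINS1 (-1.07), GINS3 (-0.82) and CDC45 (-0.77) lay between them. GINS4 shares 1145 bp of exon with ENSG00000253174 on the other strand, which fell by 0.65, and GINS3 shares 558 bp with ENSG00000276131, which fell by 0.84. GINS1 shares 259 bp with NINL on the other strand, which rose by 0.83.

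The 4 origin firing genes all fell. TICRR, also called treslin, helps to load CDC45 at licensed origins, and its normalised counts were 528, 507 and 503 in control and 241, 231 and 242 in low glucose. Both groups were tight and far apart. TICRR had a log2 fold change of -1.10 (SE 0.09, adjusted p = 8.23e-07). CDC7, the kinase that phosphorylates the MCM ring, had the smallest change in the class, with values of 253, 239 and 264 in control and 177, 181 and 193 in low glucose. No low-glucose value reached the controls. The log2 fold change of CDC7 was -0.45 (SE 0.11, adjusted p = 0.00502), and its activator DBF4 was close to it at -0.49. TOPBP1, a scaffold in firing that also activates the checkpoint kinase ATR, had -0.53.

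Of the 4 genes of polymerase alpha and primase, which make the RNA-DNA primers, 2 fell. POLA1 (ENSG00000101868.11, chrX:24693873-24996986, plus strand), the catalytic polymerase subunit, counted 1222, 1283 and 1081 in control and 554, 608 and 624 in low glucose. All low-glucose values lay far below the lowest control. Its log2 fold change was -1.002 (SE 0.09, adjusted p = 1.66e-06). PRIM1, the catalytic primase subunit, fell by 0.81 on the log2 scale (adjusted p = 0.00178). PRIM2, the large primase subunit, counted 251, 223 and 248 in control and 215, 196 and 218 in low glucose. The groups touched without overlapping, and the estimate of -0.20 (95% confidence interval -0.43 to 0.03, adjusted p = 0.184) did not pass.

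POLA2, the accessory subunit of polymerase alpha, had the fewest reads of all members, 52 to 91 in a library. It shares 2012 bp of exon with ENSG00000285816 on the same strand, so its counts are uncertain. Its estimate was -0.45 with a 95% confidence interval of -0.90 to 0.00 and an adjusted p of 0.123. PRIM1, MCM8, POLD1, POLD3 and TIPIN also share at least 100 bp of exon with a gene on the same strand and carry the same uncertainty.

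The 3 genes of polymerase delta among the members, which encode the polymerase of the lagging strand, fell by similar and modest amounts. POLD3, an accessory subunit, counted 312, 300 and 368 in control and 240, 227 and 222 in low glucose. The groups did not overlap, and the log2 fold change was -0.50 (SE 0.11, adjusted p = 0.00277). POLD2, the subunit that joins the catalytic subunit to POLD3, counted 2316, 2815 and 2440 in control and 1947, 2064 and 1960 in low glucose. Its middle control library was the highest, and the groups were apart. POLD2 had a log2 fold change of -0.34 (SE 0.08, adjusted p = 0.00644), which did not pass under quantile normalization (-0.13, adjusted p = 0.237) or without a variance trend (adjusted p = 0.0832). POLD1, the catalytic subunit, lay between them at -0.41.

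Of the 4 genes of polymerase epsilon, which copies the leading strand, 3 fell. POLE2, which joins the catalytic subunit to the helicase, counted 170, 148 and 201 in control and 89.5, 122 and 102 in low glucose. Both groups were spread out but did not overlap. Its log2 fold change was -0.72 (SE 0.16, adjusted p = 0.00265). POLE3, a histone-fold subunit, and POLE, the catalytic subunit, fell by 0.67 and 0.45. POLE4, the histone-fold partner of POLE3, counted 280, 239 and 412 in control and 329, 318 and 321 in low glucose. The control libraries spanned all low-glucose values. The estimate of 0.10 did not pass the test (95% confidence interval -0.23 to 0.42, adjusted p = 0.683), and single control libraries decided it. It was -0.07 (adjusted p = 0.682) without the middle control library and 0.32 (adjusted p = 0.0290) without the deepest.

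The sliding clamp gene and 3 of the 5 clamp loader genes fell. PCNA (ENSG00000132646.11, chr20:5114953-5126626, minus strand), the ring that holds polymerases on DNA, fell from 2448 ± 220 to 1166 ± 71.7, a log2 fold change of -1.07 (SE 0.08, adjusted p = 6.31e-07). Per exonic length of the gene model, PCNA had the highest level of the members in both groups, at 526 ± 49.1 TPM in control, where TPM is the normalised count per length scaled to a fixed total. MCM7 came next at 392 ± 17.5 TPM, and this order rests on the lengths used (1403 bp for PCNA and 4960 bp for MCM7), since MCM7 had the higher normalised count. RFC3, a small subunit of the loader, had the largest fall of the class, with normalised counts of 994, 882 and 1016 in control and 404, 420 and 499 in low glucose. No low-glucose value came near the lowest control. RFC3 had a log2 fold change of -1.13 (SE 0.10, adjusted p = 1.37e-06). RFC2 (-0.64) and RFC1 (-0.51), the large subunit particular to the PCNA loader, fell as well.

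RFC5, a further small subunit, counted 441, 421 and 462 in control and 403, 387 and 414 in low glucose. The low-glucose values were all the lower, but the highest of them nearly met the lowest control. RFC5 had an estimate of -0.14 (95% confidence interval -0.33 to 0.05, adjusted p = 0.268). RFC4 counted 648, 455 and 785 in control, a spread wider than the distance to its low-glucose values of 557, 539 and 571. Its estimate was -0.14 (adjusted p = 0.497), and -0.36 (adjusted p = 0.00175) without the middle control library. ORC6 and RFC4 were thus both lowest, among controls, in the same library, as were GMNN, RPA2 and PCNA. These genes were picked after their values were seen. Other members went the other way, and ORC1, MCM2, MCM4, POLD2, LIG1 and RPA1 were highest among controls in that library.

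The 3 genes of Okazaki fragment processing all fell. FEN1 (ENSG00000168496.4, chr11:61792911-61797238, plus strand), the nuclease that removes the displaced flap, counted 1103, 989 and 1049 in control and 489, 469 and 536 in low glucose. The groups were far apart with little spread, and the log2 fold change was -1.07 (SE 0.09, adjusted p = 6.37e-07). LIG1, the ligase that seals the nick, fell by 0.94 on the log2 scale (adjusted p = 1.92e-05). DNA2, a nuclease and helicase that cuts long flaps, counted 314, 269 and 305 in control and 167, 173 and 214 in low glucose. The unnumbered low-glucose library was the highest of its group and still below the controls. DNA2 had a log2 fold change of -0.68 (SE 0.12, adjusted p = 0.000659).

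In the fork protection group, 3 of 4 genes fell. CLSPN, which encodes claspin, the adaptor through which ATR activates CHK1, counted 930, 895 and 825 in control and 423, 440 and 521 in low glucose. The groups did not come near each other. Its log2 fold change was -0.94 (SE 0.10, adjusted p = 5.86e-06). TIPIN and WDHD1, the latter a link between the helicase and polymerase alpha, fell by 0.71 and 0.66. TIMELESS, the partner of TIPIN, counted 900, 1081 and 825 in control and 772, 775 and 824 in low glucose. The lowest control was barely above the highest low-glucose value. TIMELESS had an estimate of -0.23 and did not pass the test (adjusted p = 0.0837), but did without the deepest control library (-0.32, adjusted p = 0.0110).

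All 3 subunits of replication protein A, which coats single-stranded DNA, fell. The fall was largest in RPA1, the large DNA-binding subunit, whose normalised counts were 2155, 2442 and 2184 in control and 1295, 1411 and 1459 in low glucose. RPA1 values were widely separated by group, with a log2 fold change of -0.70 (SE 0.08, adjusted p = 1.62e-05). RPA3, the smallest subunit, counted 326, 321 and 369 in control and 252, 272 and 252 in low glucose. Here too no value overlapped. The log2 fold change of RPA3 was -0.39 (SE 0.10, adjusted p = 0.00913). RPA2 had -0.51 (adjusted p = 0.00622) and did not pass without a variance trend (adjusted p = 0.0902).

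The 3 chromatin genes fell. ATAD2, a bromodomain ATPase that binds acetylated histones on newly replicated chromatin, counted 1464, 1423 and 1305 in control and 673, 673 and 708 in low glucose. The low-glucose libraries were nearly equal and far from the controls. ATAD2 had a log2 fold change of -1.03 (SE 0.08, adjusted p = 4.60e-07). CHAF1A and CHAF1B are the large and middle subunits of CAF-1, which places histones H3 and H4 on new DNA. CHAF1A fell by 1.01 on the log2 scale (adjusted p = 4.43e-07). CHAF1B counted 550, 500 and 570 in control and 316, 385 and 386 in low glucose. Replicate 1 was the lowest, and all 3 low-glucose values lay below the controls. Its log2 fold change was -0.58 (SE 0.10, adjusted p = 0.000616).

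FAM111B and FAM111A, neighbouring genes on chromosome 11 that encode related proteases, fell by very unequal amounts. FAM111A removes protein obstacles from forks and binds PCNA, and FAM111B is its paralogue. FAM111B (ENSG00000189057.11, chr11:59107185-59127412, plus strand) counted 453, 475 and 381 in control and 113, 120 and 148 in low glucose. The lowest control was far above the highest low-glucose value. FAM111B went from 436 ± 49.1 to 127 ± 18.6, which is 29.0% of control and a log2 fold change of -1.78 (SE 0.13, adjusted p = 2.74e-07). FAM111A (chr11:59142748-59155039, plus strand) counted 167, 157 and 148 in control and 88.5, 130 and 127 in low glucose. Replicate 1 was well below the other low-glucose libraries. FAM111A fell by 0.46 on the log2 scale (SE 0.16, adjusted p = 0.0372), and the call was lost under 6 of the 15 alternative fits, among them DESeq2 (adjusted p = 0.0750) and the fit without replicate 1 (-0.28, adjusted p = 0.191).

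To ask whether partners changed by unequal amounts, the log2 ratio of 2 members was taken within each library for 15 pairs of genes. This comparison does not depend on the scaling between libraries. In 9 of the 15 pairs the groups did not overlap, each with an exact two-sided permutation p of 0.1, the smallest that 3 against 3 allow, and 0.167 after adjustment over the 15, so no pair passed a threshold of 0.05. Over all pairs of tested genes with a mean of at least 50, the groups did not overlap in 56.8%, so the count of 9 was near that background and is not a result about these genes. The values of the pairs, which were chosen with earlier results known, are given as a description. The ratio was lower in low glucose in 6 of these pairs and higher in 3.

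The largest difference was in FAM111B to FAM111A, whose log2 ratio was 1.43, 1.59 and 1.36 in control and 0.34, -0.12 and 0.21 in low glucose. FAM111B was well above FAM111A in every control library and close to it in low glucose, a difference of -1.32. The log2 ratio of ORC1 to ORC2 was -0.43, -0.14 and -0.29 in control and -1.58, -1.29 and -1.53 in low glucose. That is a difference of -1.18 between the cell-cycle-regulated subunit and a core subunit. The other pairs with a lower ratio were CLSPN to TIMELESS (-0.71), RFC3 to RFC1 (-0.62), MCM8 to MCM9 (-0.42) and GINS2 to GINS4 (-0.41).

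A higher ratio in low glucose was found for CHAF1B to CHAF1A (0.43), CDT1 to GMNN (0.40) and RPA3 to RPA1 (0.31). For CDT1 to GMNN, the licensing factor and its inhibitor, the values were 0.90, 1.43 and 0.97 in control and 1.53, 1.44 and 1.52 in low glucose. The groups were parted by less than the spread of the controls, since the middle control library reached almost to the lowest low-glucose value. For CDC7 to its activator DBF4 the difference was 0.04, for POLE2 to POLE3 it was -0.06 and for CDC6 to ORC2 0.04, and the groups overlapped. POLD3 to POLD2 (-0.16), MCM10 to MCM2 (-0.20) and POLE2 to POLE (-0.27) overlapped as well.

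**Figure D4:**
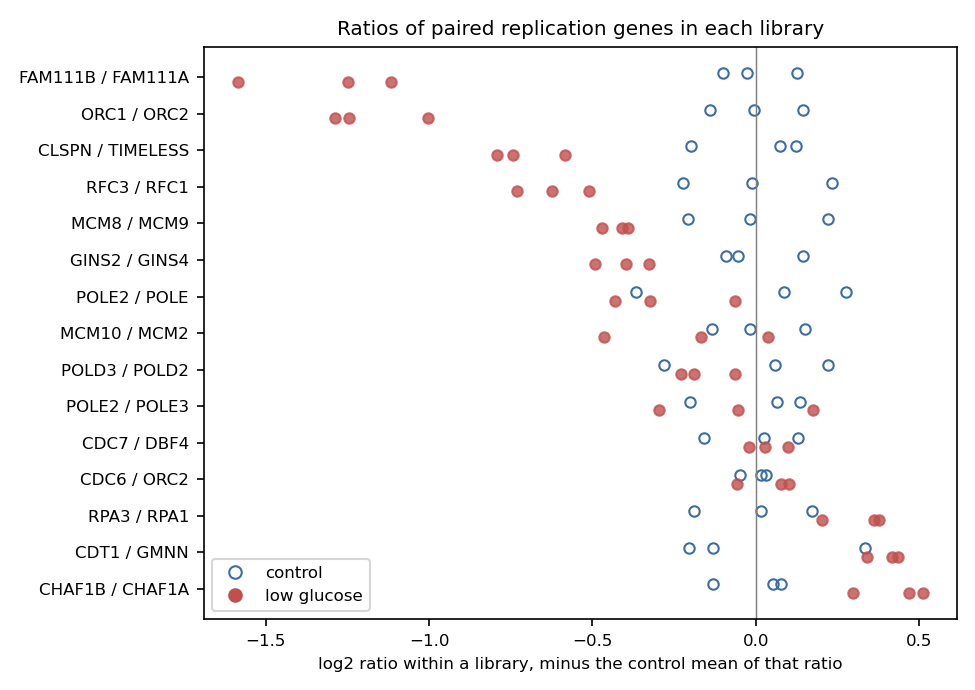
Each line is a pair of genes and each point a library, open for control and filled for low glucose. The x axis is the log2 ratio of the normalised counts within the library, minus the control mean of that ratio. The pairs run from FAM111B / FAM111A, with a difference of -1.32, to CHAF1B / CHAF1A with 0.43, and in 9 of 15 pairs the filled and open circles do not overlap, against 56.8% of all pairs of tested genes with a mean of at least 50.

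Other genes of replication, repair and the cell cycle were looked at beside the members. Of 30 further replication genes 18 were lower and 0 higher, with a median log2 fold change of -0.54. The largest falls among those that passed were in UHRF1, which brings the methyltransferase DNMT1 to new DNA (-1.46, adjusted p = 1.45e-08), and ASF1B, a histone chaperone (-1.11, adjusted p = 4.34e-07). Of 10 genes of the ATR checkpoint, which senses stalled forks, 4 were lower and 0 higher, with a median of -0.25. The largest falls were in CDC25A, a phosphatase that activates CDK2 (-1.31, adjusted p = 4.84e-07), and ATRIP, the partner of ATR (-0.95, adjusted p = 0.000116). These counts stand beside 16.2% lower over all tested genes and 27% lower over those with a mean of at least 50. The 4 of 10 ATR checkpoint genes lay near the second share and are not a result about that list.

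Most markers of mitosis moved with the replication genes. UBE2C, named here after its values were seen, was highly expressed and did not pass (0.04, limma adjusted p = 0.835). NUSAP1 and PRC1 did not pass either and had at most 14 and 37 reads in a library. Of 20 mitotic genes 17 were lower and 0 higher, with a median of -0.83, and the largest falls were in MKI67, the Ki-67 proliferation antigen (-1.58, adjusted p = 6.37e-07), and KIF20A, a kinesin of cytokinesis (-1.35, adjusted p = 1.76e-08). Of 15 E2F and G1/S regulators 9 were lower and 2 higher, where 14.7% of all tested genes were higher, so the count of higher genes in this list was near that background. E2F2 (-1.67, adjusted p = 1.35e-06) and E2F8 (-1.29, adjusted p = 1.51e-05) fell most. The lower counts of this list and the mitotic list stand beside 16.2% of all tested genes. Among tested genes with a mean of at least 50 the lower share was 27%. The genes that rose, named here after their values were seen, were the CDK inhibitors CDKN1A (0.94, adjusted p = 0.00239) and CDKN1B (0.36, adjusted p = 0.00433). In the lists with 0 higher genes by limma, the count was also 0 at an unadjusted p under 0.05, with edgeR and with DESeq2. The part of a change in cell cycle phase in the fall of the replication genes was not tested.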

How the data were processed

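Strand-specific RNA-seq libraries of MiaPaCa-2 cells, 3 in low glucose and 3 in control, were sequenced by the authors. According to the methods and the processing notes, reads were trimmed with Trim Galore, mapped to hg38 with STAR 2.7.0e and compared with DESeq2. RSEM is in the study's software list, but the methods do not tie it to the deposited table, and the strand setting and the annotation are not given in the sources used here. The authors deposited a normalised signal, in which each gene's count stands divided by the size factor of its library. Each value was a whole multiple of the value of 1 read (tolerance 0.1 read, 100% of values in each library), so reads were recovered.

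The test was limma 3.58.1 in R 4.3.3 (lmFit, eBayes with trend) on log2(value + 1) for genes with a mean of at least 1, two-sided, with Benjamini-Hochberg adjustment and a threshold of 0.05. Fold changes are thus on the log2(value + 1) scale, which understates those of genes with few reads. Gene positions and TPM used Gencode 44 (99.5% of identifiers matched), and 45 pseudoautosomal copies on chromosome Y were left out. TPM was computed here from the values and the exonic length of each gene model. Counts by edgeR 4.0.16 and DESeq2 1.42.0 on recovered reads, other scalings, filters, a pseudocount of 0.1, no variance trend and each library left out in turn were alternatives. Tested on simulated counts in which 200 genes were changed, limma called 187 of them and 6 others among 20610 genes. The simulation gave every gene the same dispersion and changed far fewer genes than the 6528 called in the data. It is a check of the procedure and does not measure the error of the real calls. Python 3.11.15 with pandas 2.3.3, scipy 1.17.1, numpy 2.4.6 and matplotlib 3.10.9 served for tables, permutation tests and figures.

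The members, the other gene lists and the 15 pairs were chosen with earlier results of these data known. Members were grouped into 15 classes by role. Values per library are given for the member with the lowest and the one with the highest log2 fold change of each class, and of each other list the 2 genes with the largest change that passed are named. ORC6, RFC4 and PCNA are given further values and were chosen after their values were seen. The p values rest on the spread between the 3 libraries of a group, at 9741183 to 13733477 reads a library. The spread of each gene was moderated toward a trend over all tested genes, so small p values do not come from 3 libraries alone. Without that trend the limma adjusted p was 0.0044 for ORC1 and 0.00603 for MCM4. That fit still moderated the spread of each gene toward a value common to all genes.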

Additional observations from a re-analysis of the deposited data

How the results depend on the processing

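No paired analysis was possible because the columns of the control libraries, and 1 of low glucose, show no replicate number. Of the 49 lower calls, 43 held in all 15 alternative fits, and ORC2, ORC3, CDC6, POLD2, RPA2 and FAM111A lost theirs in at least 1. The number of lower members was 45 under library size, 43 without a variance trend, 49 with edgeR, 48 with DESeq2, and 16 where the log2 fold change also had to reach 1 in size. Leaving out each library in turn gave 45 to 51 lower and 0 to 1 higher, the latter being POLE4 (0.32) without the deepest control library. POLE4 reversed to -0.0740 without the middle control library. The cause was not tested. The median of the members lay between -0.69 and -0.62 with a library left out and between -0.67 and -0.59 under the other settings. Pairs without overlap numbered 9 to 11. Under library size the median of all genes was 0.12 (0.05 as reported) and 40.2% of all calls were lower (52.3% as reported). The 10 members that did not pass had 95% confidence intervals between -0.90 and 0.42.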
